A study of Homo sapiens with 12 samples.

Results

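Glypicans and syndecans are the families of heparan sulphate proteoglycans that sit on the cell surface. In HK-2 cells given low-dose Aa (an agent the labels name only so), the glypican gene GPC6 was far lower than in controls at 48 h, and the syndecan gene SDC4 was higher at 24 h and 48 h. The members were all genes named GPC1 to GPC6 and SDC1 to SDC4, found through the array annotation: 10 genes (6 glypicans and 4 syndecans) of 19775 with a probe set, measured by 18 probe sets that map to 1 gene each. The families were selected on 1 measured value, the low signal of GPC6 with Aa at 48 h, so its values at 48 h are given as a description, with no test. The other members came in by name.

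HK-2 is an immortalised line of human renal proximal tubular epithelial cells. Total RNA of 12 cultures was hybridised to 1 array each, in 4 groups of 3 that the labels call biological replicates: low-dose Aa for 24 h, its control for 24 h, low-dose Aa for 48 h and its control for 48 h. All groups grew in the same medium with epidermal growth factor, hydrocortisone, insulin, transferrin and selenium, and control cells received the vehicle. The labels give neither the dose in figures nor the full name of Aa or the vehicle, and do not say how the replicate cultures were kept apart, so a p-value here reflects array-to-array spread alone, which may be technical. A single cell line was used.

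A glypican is held to the outer leaflet of the plasma membrane by a glycosylphosphatidylinositol (GPI) anchor, and a syndecan spans the membrane with a short cytoplasmic tail. Their core proteins carry long sulphated sugar chains that bind fibroblast growth factors, Wnt and hedgehog proteins, chemokines and matrix proteins, so that the cores act as co-receptors and adhesion molecules. SDC1 and SDC4 are the syndecans usually described in epithelia, SDC2 in mesenchymal cells and SDC3 in neural tissue, and the glypicans differ in which growth signals they favour.

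Promoter windows are shown for 3 members: GPC6 and GPC4, which read lower with Aa, and SDC4, which read higher. In the fit described below GPC4 was called at neither time, and GPC1 and SDC3, which were called at 48 h, are not shown. Each is the 250 bases before a RefSeq transcript start in GRCh38.p14, 5′ to 3′, with matches to the GC box GGGCGG and to TATAAA on either strand in capitals (overlapping matches run together). RefSeq windows were found for 8 of the 10 members.
GPC6, chr13:93226557-93226806 (+ strand): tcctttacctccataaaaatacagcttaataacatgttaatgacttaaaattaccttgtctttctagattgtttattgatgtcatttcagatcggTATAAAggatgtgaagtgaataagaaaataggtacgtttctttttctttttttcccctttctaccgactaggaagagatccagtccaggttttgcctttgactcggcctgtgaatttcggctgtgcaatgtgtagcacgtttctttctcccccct
GPC4, chrX:133415490-133415739 (- strand): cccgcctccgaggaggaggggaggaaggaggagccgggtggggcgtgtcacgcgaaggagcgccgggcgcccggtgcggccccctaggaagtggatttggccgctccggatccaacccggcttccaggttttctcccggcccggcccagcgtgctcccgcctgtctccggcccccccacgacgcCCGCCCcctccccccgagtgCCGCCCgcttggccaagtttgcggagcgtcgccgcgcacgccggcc
SDC4, chr20:45348425-45348674 (- strand): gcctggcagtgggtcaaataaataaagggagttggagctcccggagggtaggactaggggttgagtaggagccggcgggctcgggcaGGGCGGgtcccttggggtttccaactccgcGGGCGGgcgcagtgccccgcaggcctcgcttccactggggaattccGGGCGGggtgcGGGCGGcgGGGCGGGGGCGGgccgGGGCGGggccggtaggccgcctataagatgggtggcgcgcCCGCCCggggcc
The GPC6 window had 37.6% G and C bases, no GC box and 1 TATAAA match. It does not end at the annotated start of the gene, which lies further upstream. The SDC4 window held 73.6% G and C bases and 8 GC box matches, and the GPC4 window 76% and 2. Over all 35116 windows the median was 58%, 42.6% held a GC box and 10.7% a TATAAA match. Of all windows 8.94% had fewer G and C bases than that of GPC6.

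The values are log2 signals on the scale of the authors' GCRMA normalisation, on which a difference of 1 is a doubling. Changes are given as log2 differences, control subtracted from Aa, and their standard errors (SE) come from a linear model that limma fitted to all 12 arrays. Each gene was represented by its brightest probe set with a mean of at least 4. A gene is called, and said to have risen or fallen, where its p, adjusted by Benjamini-Hochberg across the 10791 genes tested, was under 0.05. Of the members 8 were tested, with 14 probe sets past the filter. GPC3 and GPC5 were not: their 3 probe sets read 2.10 to 2.44 on every array. These values lie in the low part of the scale, where 12.1%, 13.7% (GPC3) and 27.9% (GPC5) of all probe sets had a lower mean.

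The arrays of all groups had medians of 2.93 to 3.01 over all probe sets. Of the proximal tubule markers 3 of 11 with a probe set (CDH6, PAX8 and SLC3A1) passed the filter, whereas 8, among them LRP2, CUBN, AQP1 and SLC34A1, read below it. All 3 that passed fell at 48 h and none was called at 24 h. The summed log2 signal of the 11 was 53.6 to 53.9 in 24 h controls and 50.7 to 52.2 with Aa, and 53.3 to 54.7 and 48.8 to 51.3 at 48 h. Of 7 fibroblast markers DCN, LUM and COL1A1 passed, with sums of 40.9 to 42.1 against 39.3 to 40.5 at 24 h and 40.1 to 40.9 against 39.6 to 40.4 at 48 h. Of these, COL1A1 fell at 24 h and none was called at 48 h. All 5 endothelial markers and the 4 leukocyte markers with a probe set were below the filter, as were 2 of 3 podocyte markers. Control probe sets for 28S ribosomal RNA differed by 0.91 (24 h) and 0.81 (48 h), Aa being higher in 3 of 3 replicate pairs each, and the actin 3′ minus 5′ signal by 0.03 and 0.12. The part of these differences in the results that follow was not tested. In bulk RNA, fewer cells of a type and less RNA per cell cannot be told apart.

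At 24 h 2 of the 8 tested members were called, SDC4 and GPC1, and both rose. Over all genes tested 23.1% were called at this time, 10.3% up and 12.8% down. At 48 h SDC4, GPC1 and SDC3 rose, 3 of the 7 tested members other than GPC6, where the share over all genes was 37.8% (17.8% up and 20.1% down). The median change of the 8 was -0.25 at 24 h and 0.04 at 48 h, against -0.02 and -0.0009 over all genes. Of the 8 tested members the 3 Aa arrays did not overlap the 3 control arrays for 4 genes at 24 h (GPC1, GPC4, GPC6 and SDC4) and 4 at 48 h (GPC1, SDC3, SDC4 and, as a description, GPC6), against 40.5% and 48.4% of all genes. Arrays that share a replicate number deviated alike. In a fit blocked by that number, so that Aa is set against its own control, 6 members were called at 24 h (SDC4 and GPC1 up, and GPC2, GPC4, GPC6 and SDC1 down), where 41.3% of all genes were (18.5% up and 22.8% down). At 48 h the block called 4 of the 7 members other than GPC6, with GPC4 added, against 54.8% of all genes (26.7% up and 28.1% down).

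**Figure D1:**
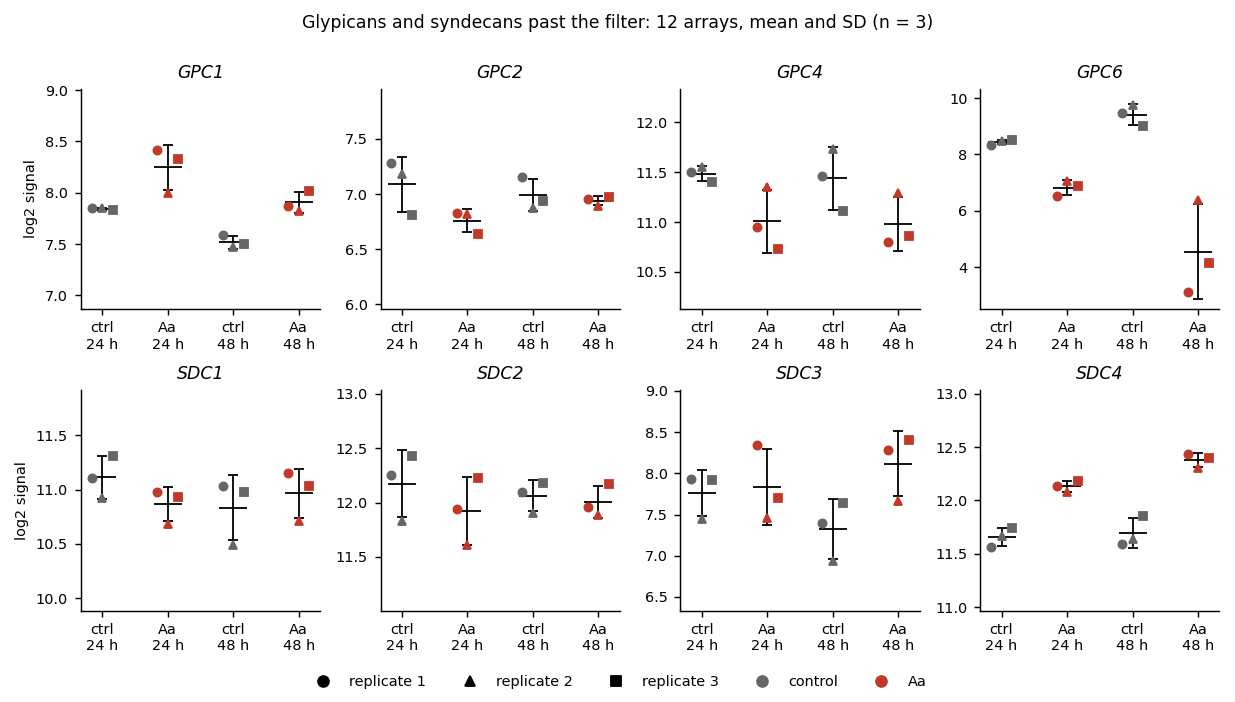
Log2 signal of the 8 tested members on each of the 12 arrays, by group. Symbols mark the replicate number, grey is control and red is Aa, and bars show the mean and SD of 3 arrays; each panel has its own axis range. GPC6 parts most between the groups at 48 h (9.41 in controls and 4.56 with Aa), and SDC4 is higher with Aa at both times.

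GPC6, a GPI-anchored core protein whose loss of function causes a skeletal dysplasia in humans, was measured by 2 probe sets. On the brighter one the 24 h controls read 8.35, 8.47 and 8.51 (replicates 1 to 3) and the 24 h Aa cultures 6.52, 7.06 and 6.90. The 48 h controls read 9.49, 9.74 and 9.00 and the 48 h Aa cultures 3.12, 6.39 and 4.15. All Aa arrays lay below all control arrays at each time, and control cells had more signal at 48 h than at 24 h on every array while Aa cells had less. Means were 8.45 ± 0.08 (SD, n = 3) in controls and 6.82 ± 0.28 with Aa at 24 h, and 9.41 ± 0.38 and 4.56 ± 1.67 at 48 h.

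At 24 h, a contrast in arrays that the choice of GPC6 did not use, it was 3.08-fold lower with Aa (log2 change -1.62, SE 0.62). It missed the threshold in limma with all 12 arrays, with an adjusted p of 0.0825, and passed it with the block (0.0367) and when only the 24 h arrays were fitted (0.00190). The pooled spread includes the wide spread of the 48 h Aa arrays. Without Aa 48 h replicate 2 the adjusted p at 24 h was 0.00246, and with the mean of both probe sets 0.0160. Over all alternatives it ran from 0.00190 to 0.331. The dimmer probe set read 6.85, 7.23 and 6.90 in the 24 h controls and 5.19, 5.86 and 4.95 with Aa. It fell by 1.66 (SE 0.34, adjusted p = 0.00590 over all 19623 probe sets past the filter). Of the 14 member probe sets 4 were called at 24 h, against 22.3% of all probe sets, and of the 12 that are not of GPC6 3 were called at 48 h, against 33.9%.

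At 48 h the brighter GPC6 probe set differed by -4.85 (SE 0.62) and the dimmer by -3.55 (SE 0.34), where the values were 7.76, 8.02 and 7.71 in controls and 4.52, 4.91 and 3.42 with Aa. Within replicate pairs the brighter set differed by -6.37, -3.35 and -4.85, and at 24 h by -1.84, -1.41 and -1.62. Replicate 2 had the smallest difference on either probe set at each time. The change at 48 h ran from -5.77 to -4.10 when arrays were left out. Aa replicate 1, at 3.12, read below the filter value of 4. The Aa effect at 48 h minus that at 24 h was -3.23 (SE 0.87), and control cells read 0.96 (SE 0.62) higher at 48 h than at 24 h. These differences use the 48 h arrays and are descriptions.

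GPC4, a broadly expressed glypican, was lower with Aa at each time by a much smaller amount. Its brighter probe set read 11.50, 11.55 and 11.40 in 24 h controls and 10.95, 11.35 and 10.73 with Aa, so the groups did not overlap. At 48 h controls read 11.46, 11.74 and 11.11 and Aa cultures 10.80, 11.29 and 10.86, with Aa replicate 2 above control replicate 3. The changes were -0.47 (SE 0.20, adjusted p = 0.110) and -0.45 (SE 0.20, adjusted p = 0.0927), neither past the threshold. With the block both fell (adjusted p = 0.00869 and 0.00725), and the Aa array was lower in 3 of 3 pairs at each time, by 0.19 to 0.67. The dimmer probe set, also lower in all pairs, fell at 24 h by 0.47 (SE 0.13, adjusted p = 0.0217 over probe sets) and changed by -0.35 (SE 0.13, adjusted p = 0.0558, and 0.0272 with the block) at 48 h. Leaving out Aa replicate 2 of a time brought the call of that time (adjusted p = 0.0392 at 24 h and 0.0383 at 48 h), as did leaving out control replicate 3 at 48 h (0.0386).

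GPC1, a glypican that binds fibroblast growth factors and is raised in several carcinomas, rose. Its brighter probe set read 7.85, 7.85 and 7.83 in 24 h controls and 8.42, 8.0 and 8.33 with Aa, and 7.59, 7.47 and 7.50 against 7.87, 7.83 and 8.02 at 48 h. Aa lay above control on every array at both times. The rises were 0.41 (SE 0.11, adjusted p = 0.0247) and 0.39 (SE 0.11, adjusted p = 0.0205), or 1.32-fold and 1.31-fold. The dimmer probe set did not follow: it changed by 0.14 (SE 0.33, adjusted p = 0.817 over probe sets) at 24 h and by -0.20 (SE 0.33, adjusted p = 0.678) at 48 h, with replicate groups that overlapped. Both probe sets carry names that mark sequence shared between transcripts. With the mean of both, the call ended at 24 h (0.27, adjusted p = 0.356) and 48 h (0.09, adjusted p = 0.745). The call at 24 h was also lost when only the 24 h arrays were fitted (adjusted p = 0.0703), and the calls of both times without replicate 1 or 3 of every group (0.0965 to 0.246). That at 24 h was lost too without any 1 of the 24 h arrays other than Aa replicate 2, with adjusted p of 0.0607 to 0.0969, and that at 48 h without Aa replicate 3, control replicate 2 or control replicate 3 (0.0507 to 0.0778). In control cells GPC1 differed by -0.32 (SE 0.11, adjusted p = 0.195) between 48 h and 24 h, and this passed with the block (adjusted p = 0.0427).

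GPC2, known from the developing nervous system and neuroblastoma, had 1 probe set. It read 7.28, 7.18 and 6.81 in 24 h controls and 6.83, 6.81 and 6.63 with Aa, with the third control among the Aa values. The change was -0.33 (SE 0.13, adjusted p = 0.0922), and with the block GPC2 fell (adjusted p = 0.0304), as it did without control 24 h replicate 3 (adjusted p = 0.0231). At 48 h the groups overlapped, at 6.87 to 7.15 in controls and 6.89 to 6.97 with Aa, and differed by -0.05 (SE 0.13, 95% interval -0.33 to 0.24).

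SDC4, the syndecan of focal adhesions, rose at both times. Its probe set read 11.57, 11.67 and 11.74 in 24 h controls and 12.14, 12.08 and 12.18 with Aa. At 48 h it read 11.59, 11.64 and 11.85 in controls and 12.43, 12.31 and 12.40 with Aa. The groups did not overlap at either time, and the 48 h Aa arrays were the highest of all 12. SDC4 rose 1.39-fold at 24 h (0.48, SE 0.09, adjusted p = 0.00527) and 1.60-fold at 48 h (0.68, SE 0.09, adjusted p = 0.000454). The call at 24 h was lost in 1 of 27 alternatives, without replicate 1 in every group (0.43, adjusted p = 0.101), and the call at 48 h in none. The increase from 24 h to 48 h, 0.21 (SE 0.13, adjusted p = 0.518), did not pass the test.

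SDC3, a syndecan best known from neural tissue, rose at 48 h, by 0.79 (SE 0.28, adjusted p = 0.0421). Its brighter probe set read 7.40, 6.93 and 7.64 in 48 h controls and 8.28, 7.67 and 8.41 with Aa. These groups parted by a narrow gap, because replicate 2 was the lowest of both. Within pairs the difference was 0.88, 0.73 and 0.77. At 24 h controls read 7.93, 7.44 and 7.92 and Aa cultures 8.34, 7.46 and 7.70, a difference of 0.07 (SE 0.28, 95% interval -0.54 to 0.68). The Aa effect was larger at 48 h by 0.72 (SE 0.39, adjusted p = 0.432), which did not pass the test. The call at 48 h is fragile without the block. It was lost when only the 48 h arrays were fitted (adjusted p = 0.0589), without a filter (0.0992), and when certain single arrays were left out. Among the 48 h arrays these were Aa replicates 1 and 3 and control replicates 1 and 2 (0.0773 to 0.151). Among the 24 h arrays, which enter through the shared spread, they were Aa replicate 3 and control replicates 1 and 3 (0.0530 to 0.0535). The call was lost too without replicate 1 or 3 of every group (0.18 and 0.162). With the block the adjusted p at 48 h was 0.00185. In control cells SDC3 differed by -0.44 (SE 0.28, adjusted p = 0.44) between 48 h and 24 h. The dimmer SDC3 probe set, whose values of 3.32 to 4.71 average 3.83, was just below the filter and higher with Aa in 3 of 3 pairs at 48 h, by 0.15 to 0.39.

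SDC1, the main syndecan of epithelia and of plasma cells, read 11.11, 10.92 and 11.31 in 24 h controls and 10.97, 10.68 and 10.94 with Aa on its brighter probe set. At 48 h it read 11.03, 10.49 and 10.98 against 11.15, 10.71 and 11.03. The groups overlapped at both times, replicate 2 being lowest in every group. The changes were -0.25 (SE 0.17, adjusted p = 0.342, 95% interval -0.63 to 0.13) and 0.13 (SE 0.17, adjusted p = 0.587, 95% interval -0.25 to 0.52), and with the block SDC1 fell at 24 h (adjusted p = 0.0430). SDC2 had 3 probe sets. On the brightest, controls read 12.25, 11.83 and 12.43 and Aa cultures 11.94, 11.61 and 12.23 at 24 h, and 12.10, 11.91 and 12.18 against 11.96, 11.89 and 12.17 at 48 h. Its changes, -0.25 (SE 0.18, 95% interval -0.65 to 0.16) and -0.06 (SE 0.18, 95% interval -0.46 to 0.35), did not pass. All 3 SDC2 probe sets were lower with Aa in 3 of 3 pairs at 24 h, by 0.15 to 0.43, and 1 of them, the dimmest, fell with the block (adjusted p = 0.0133).

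**Figure D2:**
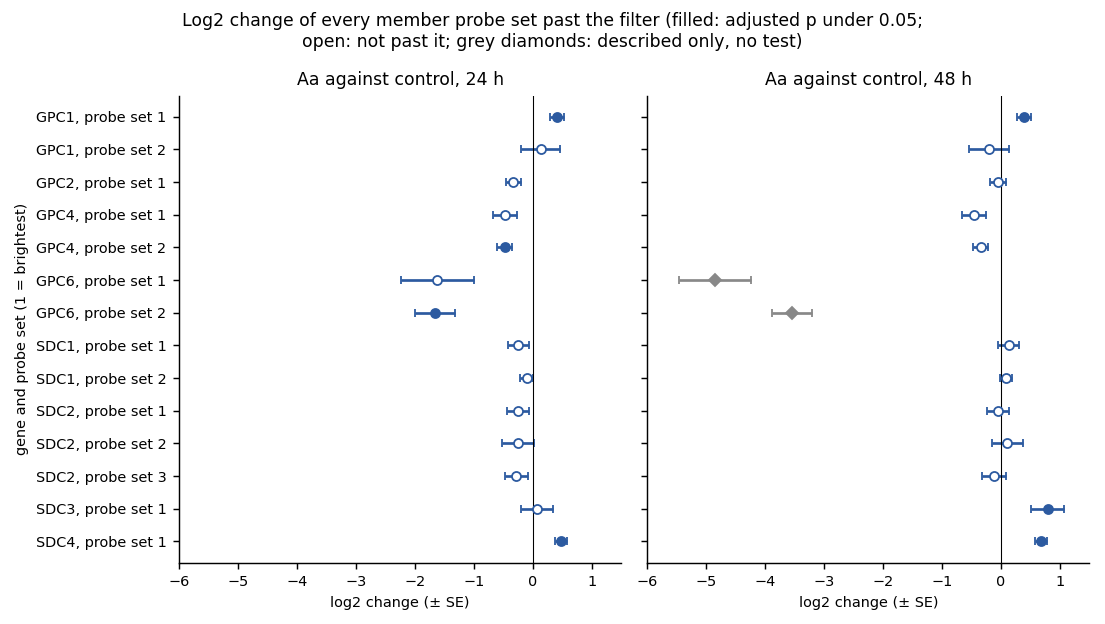
Log2 change, Aa minus control, with its SE for the 14 member probe sets past the filter, at 24 h (left) and 48 h (right). Filled circles passed an adjusted p of 0.05 over all probe sets, open circles did not, and the grey diamonds are GPC6 at 48 h, given without a test. Both GPC6 probe sets lie at the left at each time, SDC4 lies right of 0 at both, and the GPC1 probe sets differ.

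For the change of the Aa effect between the times, 0 of the 7 tested members other than GPC6 passed in limma (0.825% of all genes did). The change of GPC6 uses the 48 h Aa arrays it was chosen on and is a description, with no test. In control cells from 24 h to 48 h 0 of 8 passed, against 0.5% of all genes, and GPC1 alone had an unadjusted p under 0.05. The control arrays of the times did not overlap for 2 of 8, GPC1 and GPC6, against 23.1% of all genes. The fits at single probe sets gave 0 of the 12 that are not of GPC6 for the change of the Aa effect, against 0.392% of all probe sets. For control cells over time they gave 0 of 14, against 0.117%. With the block 1 member passed in each, GPC6 in the first, where it is a description, and GPC1 in the second, against 11% and 17.8% of all genes. In the blocked fit of single probe sets GPC1 did not pass for controls over time (adjusted p = 0.0525). There 2 dimmer SDC2 probe sets fell (-0.47, adjusted p = 0.0208, and -0.43, adjusted p = 0.00794), where 2848 of 19623 probe sets were called. The dimmer GPC6 probe set, as a description, read 0.84 (SE 0.22) higher in controls at 48 h.

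The members differ widely in genomic span, the length from start to end in the RefSeq annotation. GPC6 spans 1191.5 kb, GPC5 1468.6 kb and GPC3 449.9 kb, SDC2 118 kb and GPC4 115.4 kb, and the other members 7.8 to 40.3 kb. GPC6 is thus the only tested member over 300 kb. Among 331 tested genes of at least 300 kb, 27.5% fell at 24 h and 68% at 48 h, with median changes of -0.54 and -1.05. Among 3433 genes of 50 to 300 kb 11.1% and 25.2% fell, with medians of -0.02 and -0.11. Among 7021 shorter ones 13% and 15.3% fell, with medians of -0.008 and 0.07. The change of GPC6 at 24 h (-1.62) was more negative than the median of its span class. Its change at 48 h (-4.85) is a description, because GPC6 was chosen on its low signal there. GPC4 (-0.47 and -0.45) and SDC2 (-0.25 and -0.06) belong to the middle class. The 3 members that rose without the block, SDC4, GPC1 and SDC3, span 23.1, 32.4 and 40.3 kb. Whether span has a part in these changes was not tested.

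GPC5 and GPC6 are neighbours on chromosome 13 and GPC4 and GPC3 on chromosome X, with no other protein-coding gene between them in the annotation. In each pair 1 gene was measured above the filter and the other was not. Beside the members lay 8 tested protein-coding genes that are no members, looked up after the values of the members had been seen. Of these 2 fell at 24 h, where 12.8% of all genes fell. At 48 h 1 rose and 4 fell, where 17.8% of all genes rose and 20.1% fell. CPQ, next to SDC2, fell (-0.81, SE 0.23, adjusted p = 0.0280, and -2.05, SE 0.23, adjusted p = 0.000144), while SDC2 and its other neighbour, PTDSS1 (0.12 and 0.10), were not called. SYS1, next to SDC4, fell (-0.40, SE 0.10, adjusted p = 0.0158, and -0.45, SE 0.10, adjusted p = 0.00569), while SDC4 rose. At 48 h STAG3, next to GPC2, rose (0.43, adjusted p = 0.0314), and SLITRK5, next to GPC5 (-0.72, adjusted p = 0.0317), and PUM2, next to SDC1 (-0.33, adjusted p = 0.0347), fell.

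Over the 12 arrays the genes most like GPC6 by Pearson's r were VPS54 (0.986), a gene of vesicle tethering, the mitochondrial peptidase gene IMMP2L (0.981), DOCK10 (0.980), a guanine nucleotide exchange factor gene, the heparan sulphate sulphotransferase gene HS6ST2 (0.978) and SNAPIN (0.977). At 48 h their changes with Aa were -1.01, -4.13, -2.42, -1.35 and -1.88. In the same order they span 127.3, 899.8, 277.4, 335.4 and 3.2 kb. The member with the largest rise at 48 h was SDC3, and the genes most like it were IGFBP4 (0.970), SHKBP1 (0.970), KIF22 (0.959), CCDC102A (0.952) and CPNE1 (0.948). Among the members themselves GPC6 and GPC4 had r = 0.77, SDC1 and SDC2 0.70, and GPC6 and SDC4 -0.91. These arrays share 4 groups and 3 replicate numbers, so r largely restates how genes differ between groups and replicates.

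The genes around the heparan sulphate chain, from its synthesis to its breakdown, partners and ligands, were taken from 12 lists of 114 genes in all, 73 of them tested. Of these 18 (24.7%) were called at 24 h and 30 (41.1%) at 48 h, near the shares of 23.1% and 37.8% over all genes, with 6 up and 12 down and then 12 up and 18 down. With the block 33 (45.2%) and 39 (53.4%) were called, against 41.3% and 54.8% of all genes. The 3 lists that build the chain (linkage region, polymerisation and modification) hold 16 of the tested genes, of which 1 rose and 4 fell at 24 h and 2 rose and 6 fell at 48 h. Over all genes 10.3% rose and 12.8% fell at 24 h, and 17.8% rose and 20.1% fell at 48 h. Of the 16, 2 of the 5 tested genes of the linkage region (40%), the sugar stub on which each chain is started, fell at each time. B3GALT6, a galactosyltransferase, fell (-1.59, SE 0.12, adjusted p = 2.98e-05 at 24 h, and -1.10, SE 0.12 at 48 h), and so did B4GALT7, the galactosyltransferase before it (-1.20 and -1.41, SE 0.16), on 2 of 2 probe sets each. XYLT2, which adds the first xylose, changed by -0.18 and -0.17 and was not called.

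Of 4 polymerase genes tested, EXT1, a subunit of the enzyme that extends the chain, fell (-0.87, SE 0.17, adjusted p = 0.00442, and -1.49, SE 0.17, adjusted p = 0.000136). Its other probe sets were not called at 24 h (0.42 and 0.61), and 1 of them fell at 48 h. EXT2, the partner subunit, changed by -0.45 (SE 0.17, adjusted p = 0.0741, and 0.0191 with the block) at 24 h and fell by 0.71 (SE 0.17) at 48 h. The polymerase list had 25% and 50% called, against 23.1% and 37.8% of all genes, and median changes of -0.32 and -0.37. EXT1 spans 317.3 kb and so belongs to the long class.

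Of 7 modification genes tested 1 rose and 1 fell at 24 h, and 2 and 2 at 48 h. That is 28.6% and 57.1% called, against 23.1% and 37.8% of all genes. The 6-O-sulphotransferase genes parted: HS6ST1 rose by 0.80 (SE 0.08) and 0.50 (SE 0.08) on 1 of 2 probe sets (the other, 0.38 and 0.35, was not called), and HS6ST2 fell (-0.54 and -1.35, SE 0.16) on 3 of 3 probe sets. NDST1, which removes acetyl groups and adds sulphate to the chain, rose at 48 h by 0.50 (SE 0.12), but its dimmer probe set fell at 24 h (-1.38, SE 0.21), where the brighter one was not called (0.31), and at 48 h (-0.67, SE 0.21). Of 6 donor genes tested 1 rose and 2 fell at 24 h, and 1 fell at 48 h. That is 50% and 16.7% called, against 23.1% and 37.8% of all genes. The sulphate transporter gene SLC26A2 fell at 24 h by 0.84 (SE 0.17) and differed by -0.10 (SE 0.17) at 48 h. Its control mean was 10.67 at 24 h and 9.67 at 48 h (adjusted p = 0.0465 in limma), and its Aa mean 9.83 and 9.58. UGDH, which makes the sugar donor glucuronate, rose at 24 h by 0.53 (SE 0.14). PAPSS1, a sulphate donor synthase gene, fell at 48 h by 0.45 (SE 0.11). With the block PAPSS1 also fell at 24 h (-0.34, adjusted p = 0.0141). HPSE, heparanase, which cuts the chains outside cells, was the 1 gene of 4 in its list past the filter. It fell (-2.67 and -2.65, SE 0.15), to means of 3.99 and 3.51 with Aa, which are below the filter value that it passed through its controls, but its dimmer probe set changed by 0.30 (SE 0.22) and 0.51 (SE 0.22), neither called.

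Of 5 lysosomal enzymes tested 1 fell at 24 h, and 2 rose and 2 fell at 48 h. That is 20% and 80% called, against 23.1% and 37.8% of all genes. HGSNAT, which acetylates the chain end, fell (-2.07 and -1.88, SE 0.51), on 2 of 3 probe sets at 24 h (the third read -0.05) and 3 of 3 at 48 h. IDS rose at 48 h by 0.91 (SE 0.18), with other probe sets that disagreed (-0.53 to 0.68, the last also called). SGSH fell at 48 h by 0.41 (SE 0.13), while its other probe set (-0.32, SE 0.19) was not called. With the block IDS rose (0.27, adjusted p = 0.0223) and SGSH fell (-0.23, adjusted p = 0.0456) at 24 h as well. In the chondroitin sulphate list 1 of 12 genes rose and 2 fell at 24 h, and 4 rose and 2 fell at 48 h. That is 25% and 50% called, against 23.1% and 37.8% of all genes. CHPF2 fell at both times (-0.81 and -1.06, SE 0.18), CHST14 at 24 h (-0.97, SE 0.20) and DSE at 48 h (-0.46, SE 0.12). With the block CHST14 fell at 48 h as well (-0.51, adjusted p = 0.00856). The other proteoglycans that carry heparan sulphate had 1 of 8 called at 24 h (12.5%, against 23.1% of all genes) and 25% at 48 h (against 37.8%). At 24 h this was SPOCK2, which rose (0.87, SE 0.26) and with the block also rose at 48 h (0.58, adjusted p = 0.0173). At 48 h CD44, the hyaluronan receptor, rose by 0.87 (SE 0.21), although the other 7 of its probe sets were not called (0.07 to 0.54). COL18A1, which encodes a basement membrane collagen, fell by 1.11 (SE 0.28) on 1 of 2 probe sets, and with the block at 24 h too (-0.73, adjusted p = 0.0023).

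**Figure D3:**
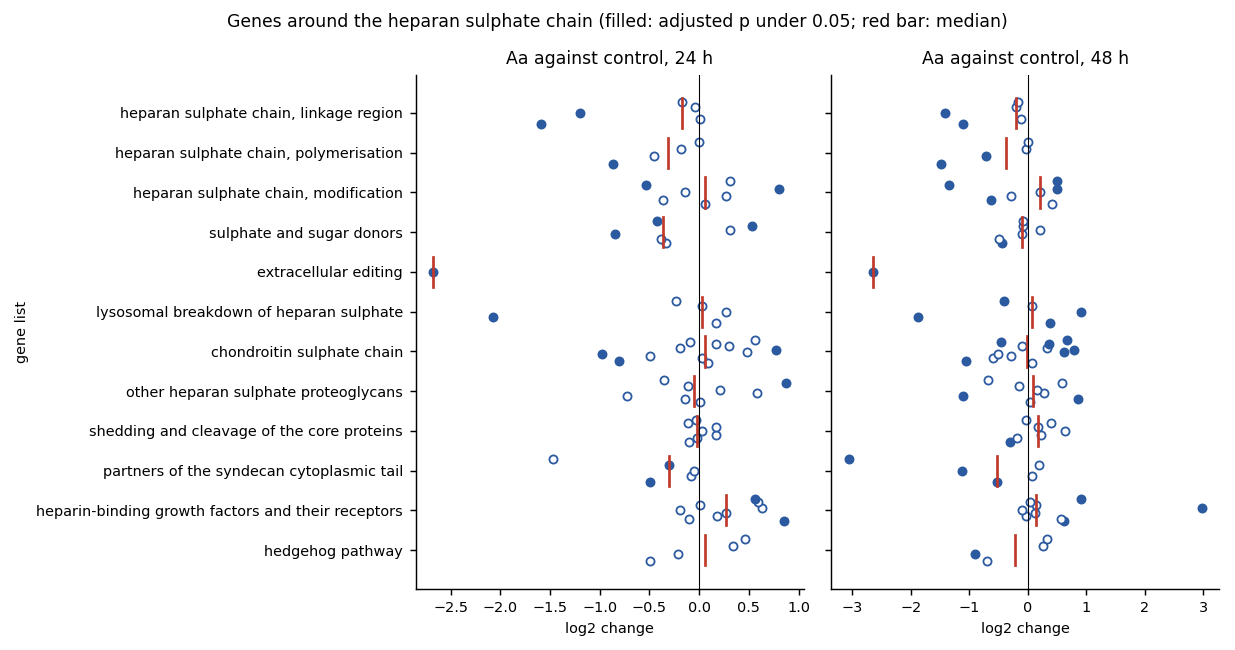
Log2 change, Aa minus control, of each tested gene in 12 lists around heparan sulphate, at 24 h (left) and 48 h (right), with different axis ranges. Filled points passed an adjusted p of 0.05, open points did not, and the red bar is the median of the list. Called genes lie on both sides of 0 in 3 of the 12 lists at 24 h and 4 at 48 h; the lowest point at 48 h is TIAM1 (-3.06, with an Aa mean below the filter value) and the highest HBEGF (2.98).

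Of 7 genes tested that shed or cleave the core proteins, ADAM10 fell at 48 h by 0.31 (SE 0.09), while ADAM17 (-0.19, SE 0.10) and MMP14 (0.64, SE 0.35) were not called. With the block MMP14 rose (adjusted p = 0.00234). Among 5 tested partners of the syndecan tail 2 fell at 24 h and 3 at 48 h. That is 40% and 60% called, against 23.1% and 37.8% of all genes. TIAM1, an activator of the GTPase Rac, fell at 48 h (-3.06, SE 0.57), to an Aa mean of 3.07 that is below the filter value. At 24 h it fell (-1.47) with the block alone (adjusted p = 0.0282). CASK, a scaffold protein that binds the tail, fell at both times (-0.49 and -0.53, SE 0.16). Another CASK probe set fell too (-0.80 and -0.92), but others were not called (-0.28 and -0.70 at 24 h, -0.32 and -0.73 at 48 h). TIAM1 and CASK span 440.7 and 408.6 kb. SDCBP, which encodes syntenin, fell at 24 h by 0.30 (SE 0.10) and changed by 0.19 (SE 0.10) at 48 h. Of 9 heparin-binding growth factor and receptor genes tested 2 rose at 24 h and 3 at 48 h. These calls, 22.2% and 33.3%, lie near the shares of 23.1% and 37.8% over all genes. VEGFA rose by 0.57 (SE 0.12) and 0.90 (SE 0.12), FGF2 by 0.85 (SE 0.14) and 0.62 (SE 0.14) on 1 of 2 probe sets, and HBEGF at 48 h by 2.98 (SE 0.43) on 2 of 2. In the hedgehog list of 4 tested genes PTCH1, the receptor, fell at 48 h by 0.90 (SE 0.25), and SUFU (0.33, SE 0.18) and GLI3 (-0.71, SE 0.33) were not called. With the block GLI3 fell at 48 h (adjusted p = 0.0269) and SUFU rose at 24 h (0.46, adjusted p = 0.0306).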

How the data were processed

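Labelled cRNA from 12 HK-2 cultures was hybridised to whole-genome oligonucleotide arrays. The deposited values are log2 signals per probe set, which the authors made with GCRMA per the submitters' processing notes (version not given in the sources used here). They run from 0.82 to 16.25. GCRMA shrinks dim probes to a narrow low range, which compresses changes there. Arrays limit precision by their number.

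Of 54675 probe sets (62 controls, left out) 41097 had 1 gene symbol, 1801 several and 11777 none. For 41037 probe sets the gene identifier matched a gene of the GRCh38.p14 annotation, whose symbol was used. No build is named for the array. Probe sets with a mean of at least 4 were kept and the brightest per gene was tested: 10791 genes, 5263 of them with several probe sets past the filter. Group means were fitted with limma 3.58.1 in R 4.3.3 (lmFit, eBayes, 8 residual and 2.76 prior degrees of freedom), two-sided, with Benjamini-Hochberg adjustment. Figures used matplotlib 3.10.9. The code was tested on simulated data.

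Deviations from the group means gave r = 0.36 to 0.61 for the 18 array pairs that share a replicate number and -0.50 to -0.02 for the 36 other pairs. The numbers were therefore used as pairs in a blocked fit.

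The members and lists were chosen with earlier results of these data known. Named were all members, up to 3 genes per list with the smallest p over both times, and the 5 genes most like GPC6 and most like the member with the largest rise at 48 h.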

Additional observations from a re-analysis of the deposited data

Results flagged for a closer look

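SDC1 was lower with Aa in 3 of 3 replicate pairs at 24 h (-0.14, -0.23 and -0.38) and higher in 3 of 3 at 48 h (0.12, 0.22 and 0.05) on its brighter probe set. The difference between the Aa effects, 48 h minus 24 h, was 0.38 (SE 0.25, adjusted p = 0.515 in limma, and 0.0732 with the replicate block), so the test of the difference was not passed. The dimmer SDC1 probe set had 2 of 3 pairs lower at 24 h and 2 of 3 higher at 48 h. Groups of 3 arrays are too small for a check of single outlying arrays.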

How the results depend on the processing

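Each result was recomputed under 27 alternatives, 15 of which leave out an array or a replicate number. The fit of every probe set with the block was chosen after seeing the data. The number of members called at 24 h was 4 with every probe set on its own, 6 with the replicate block, 7 with both, and 1 without probe sets of shared sequence. It ran from 0 to 4 when arrays were left out, being 0 without replicate 1 (all groups) and 4 without replicate 2. At 48 h the number ran from 2 to 5 around 4. It was 2 without Aa 48 h replicate 3, without control 48 h replicate 2, and without replicate 1 or 3. These 48 h counts include GPC6, which was chosen on its 48 h signal and was called in all 27, so its part in them is a description. For the change of the Aa effect the number was 1 with the replicate block and with every probe set and the block. It ran from 0 to 1 when arrays were left out (1 without Aa 48 h replicate 2). The 1 member was GPC6 each time, again a description. For controls over time the number was 1 with the block (GPC1) and 2 with every probe set and the block (SDC2 and, as a description, GPC6). Over all genes the block raised the called genes from 2494 to 4457, 4083 to 5917, 89 to 1183 and 54 to 1919 in these comparisons. Leaving out arrays gave 536 to 2628, 1549 to 4146, 0 to 255 and 1 to 361. Every probe set on its own gave 4379, 6652 and, for controls over time, 23, and with the block 7795, 10037, 1654 and 2848. For the change of the Aa effect 48 genes were called without shared sequence and 57 with median centring. For controls over time 94 were called with a trended robust fit and 0 with only the groups compared.

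SDC4 kept its call at 48 h in all 27. Signs turned only in changes that were not called. Under quantile normalization the GPC4 interaction was -0.0015, against 0.02. When arrays were left out it ran from -0.18 to 0.19, and the GPC1 interaction from -0.14 to 0.11. At 48 h GPC2 ran from -0.11 to 0.0336, SDC1 from -0.0414 to 0.26 and SDC2 from -0.14 to 0.0022, and at 24 h SDC3 from -0.18 to 0.26. In controls over time GPC2 ran from -0.24 to 0.0025, GPC4 from -0.20 to 0.12, SDC2 from -0.28 to 0.0211 and SDC4 from -0.0406 to 0.0909. The block changed no call of a member gene beyond those given in the report. GPC1 has no value without probe sets of shared sequence, and the change of the Aa effect none with only the groups compared.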
